A study of Homo sapiens with 6 samples.

Results

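DNA replication and S phase genes encode the machinery that copies the genome once per cell division. The 45 genes described here were chosen by symbol for their known part in copying DNA, and their rows were taken from the table of counts. All 45 were found among the 23710 symbols of the table, and all 45 passed the filter on low counts that left 13591 genes for testing. The cells were THP-1, an established line from a human monocytic leukaemia, with 3 RNA-seq libraries after 6 h in 10 uM mebendazole and 3 after 6 h in the vehicle DMSO. Mebendazole is an anthelmintic benzimidazole that binds tubulin, and DMSO is the solvent given to every control. The labels number the libraries as 3 pairs without stating that each pair came from its own culture. The p-values therefore reflect only how these libraries vary, and that variation may be technical.

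In a dividing cell, replication origins are licensed in G1 when the origin recognition complex, CDC6 and CDT1 load the MCM2 to MCM7 helicase ring onto DNA. In S phase CDC45 and the GINS complex turn the ring into an active helicase, primase and the DNA polymerases copy the strands, the clamp PCNA and its loader RFC keep polymerases on the template, and histone chaperones rebuild chromatin behind the fork. Many of these genes are textbook targets of E2F transcription factors, which the RB family restrains until a cell commits to S phase. THP-1 cells are a proliferating line, so the genes are active without stimulation.

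Library totals ranged from 13892038 to 15476356 reads with mebendazole and from 13420558 to 15727667 reads with DMSO. A member had between 56 and 5861 reads in a library. Levels are given as CPM, counts per 1000000 reads after TMM scaling, which sets a factor per library on the assumption that most genes do not change. That assumption was not met here, because 82.3% of all tested genes were called changed with TMM. The factors were 0.913 to 0.928 with mebendazole and 1.08 to 1.10 with DMSO, so levels and calls depend on the scaling. Each level is a share of a library of bulk RNA, in which fewer cells in S phase and less RNA of a gene per cell cannot be told apart. All 9 monocyte markers were detected, with 24775 to 27633 reads summed in each mebendazole library and 30195 to 36022 in each DMSO library. Of the 9 markers, 7 were called lower, against 41.7% of all tested genes. The transcription factor gene SPI1 was the 1 called higher, against 40.6% of all tested genes. The 5 T cell markers summed to 57 to 85 reads with mebendazole and 7 to 11 with DMSO, of which CD8A gave 57 to 84 with mebendazole and 5 to 6 with DMSO, while CD3D, CD3E and CD3G had 0 reads with mebendazole. B cell markers summed to 21 to 30 reads with mebendazole and 45 to 62 with DMSO, epithelial markers to 4 to 7 with mebendazole and 6 to 16 with DMSO, and erythroid markers to 2 to 4 with mebendazole and 0 to 1 with DMSO. The part of these marker changes in the results was not tested.

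Most replication genes were lower after mebendazole, by amounts that were small for this experiment. Of the 45 genes, 38 changed, 84.4% against 82.3% of all tested genes (edgeR quasi-likelihood test, adjusted p under 0.05). Of these, 30 were called lower, 66.7% against 41.7% of all tested genes, and 8 were called higher, 17.8% against 40.6% of all tested genes. The 7 genes that were not called were CDC6, CDT1, MCM6, POLE, RFC3, FEN1 and SLBP. At 2-fold or more, 6 genes were lower, 13.3% against 14.8% of all tested genes, and 0 were higher, against 15.5%. The 6 were PRIM1, UNG, POLA2, GINS2, MCM2 and MCM3. Changes of the other 39 genes stayed under 2-fold, 86.7% against 69.6% of all tested genes. The median log2 fold change was -0.27 in the replication genes and -0.03 in all tested genes, and the median size of the change regardless of direction was 0.33 against 0.60.

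**Figure D1:**
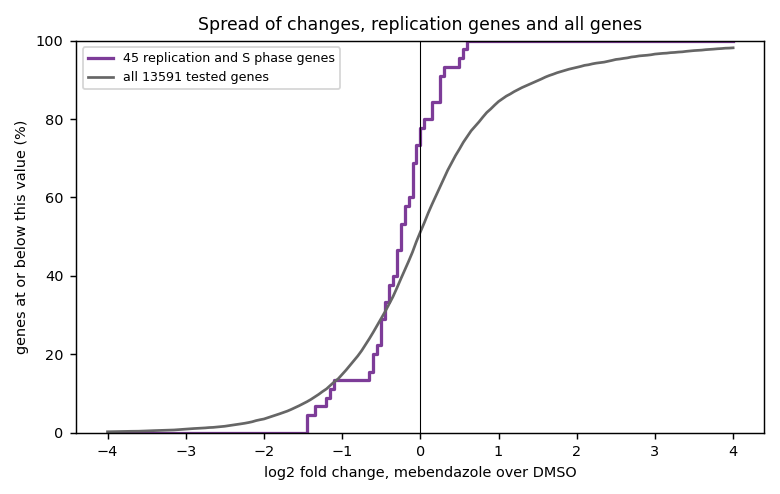
Cumulative share of genes (vertical axis, percent) at or below each log2 fold change of mebendazole over DMSO (horizontal axis), for the 45 replication and S phase genes and for all 13591 tested genes. The replication genes run from -1.47 to 0.57 and lie mostly just below 0, whereas the curve of all tested genes extends further to both sides.

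The count of falls and rises depended on how libraries were scaled. With library totals in place of TMM, 36 genes were called lower, 80.0% against 53.9% of all tested genes, and 3 were called higher, 6.67% against 30.8%. The 3 that kept a higher call were GINS4, RRM2 and E2F2. That scaling moved the median of all tested genes by -0.24, and the difference of the replication genes' median from it was -0.25 under TMM and -0.25 under library totals. DESeq2 called 24 genes lower, 53.3% against 35.0%, and 7 higher, 15.6% against 36.7%. Reads of all 45 genes together made up 2230, 2253 and 2245 of every 1000000 reads in the mebendazole libraries, against 3370, 3354 and 3334 in the DMSO libraries. The groups did not overlap on this sum, and the mebendazole mean was 0.669 of the DMSO mean. In TMM-scaled CPM the sum averaged 2442 ± 12.9 with mebendazole and 3083 ± 31.6 with DMSO (SD, n = 3 each), a ratio of 0.792. Abundant genes weigh most in these sums, and MCM3 alone averaged 160 CPM with mebendazole and 347 with DMSO. The sums therefore do not give the change of a typical gene of the 45, whose median log2 fold change was -0.27 under TMM. The 3 mebendazole libraries all lay below the 3 DMSO libraries in 30 of the genes, against 41.9% of all tested genes, and all above them in 9, against 40.5%.

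**Figure D2:**
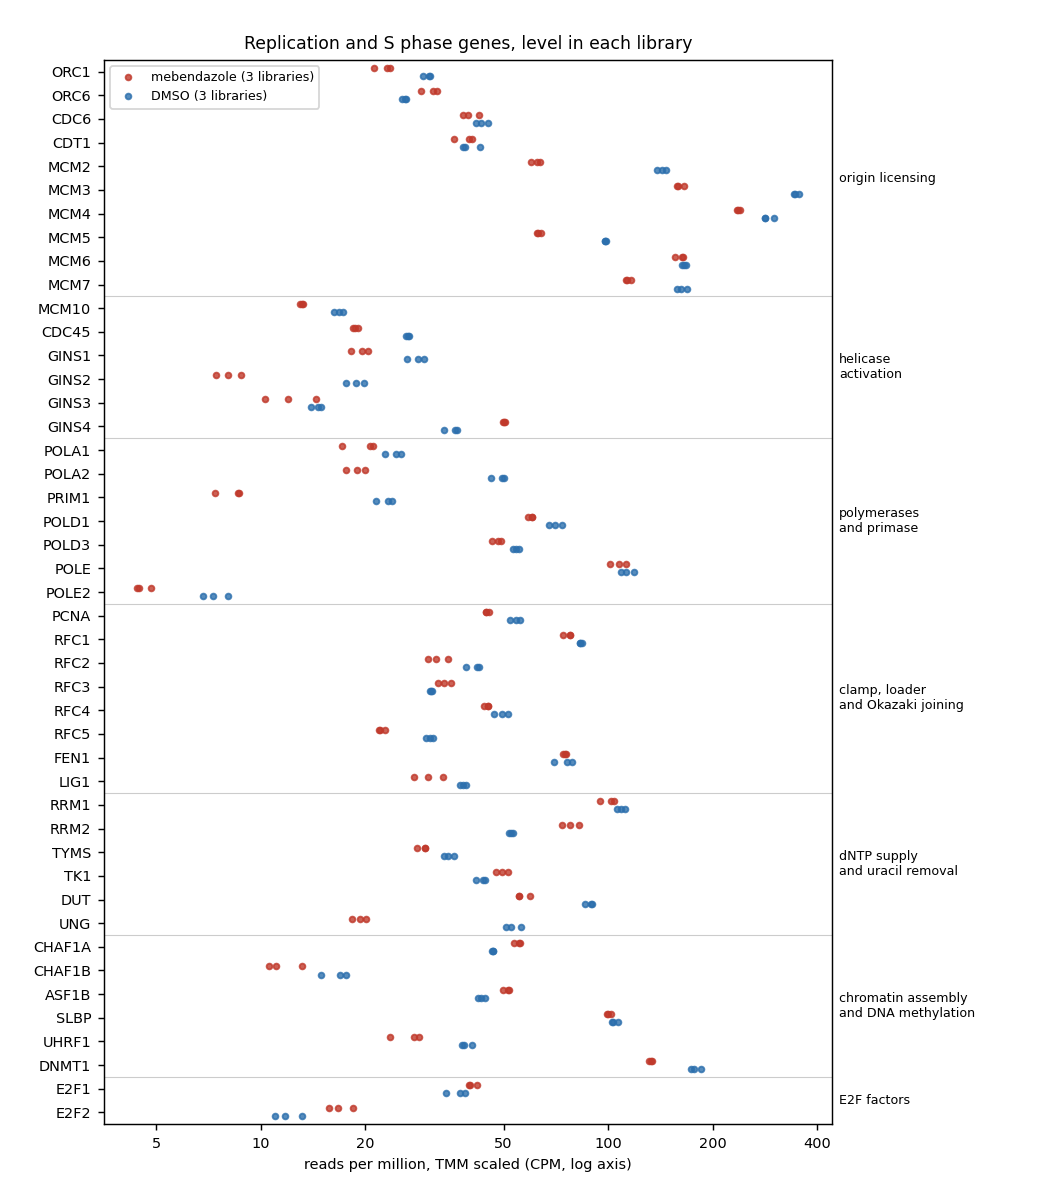
Level of each of the 45 genes (rows, grouped by role) in CPM on a log axis, with mebendazole libraries in red drawn above DMSO libraries in blue and a point for each of the 3 libraries per group. MCM2, MCM3, GINS2, POLA2, PRIM1 and UNG show the widest gaps to lower values with mebendazole, and RRM2, GINS4 and E2F2 sit at higher values.

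Promoter sequence of these genes is shown because E2F sites are the feature they are best known to share. RefSeq promoter windows of build GRCh38.p14 were matched by symbol for 41 of the 45 genes, all but MCM4, MCM5, GINS4 and POLD3. The 250 bases before the start were searched on both strands for TTTCCCGC, TTTCGCGC, TTTGCCGC or TTTGGCGC, the letters of the textbook E2F site. None of these spellings contains CCAAT or TTTGAA, the other motifs searched. At least 1 such match was present in 17 of the 41 genes, or 41.5%, against 5.33% of the 9902 tested genes with a window and 2.79% of all 35116 windows. CCAAT was present in 24 of the 41 genes, or 58.5%, against 41.3% of tested genes with a window and 32.0% of windows. TTTGAA, the letters of the cell cycle homology region found in many mitotic promoters, was in 4 of the 41, or 9.76%, against 12.1% of tested genes and 13.3% of windows. A match is a description of the letters, not a site shown to be bound.

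The windows below are those of PRIM1, UNG, POLA2, GINS2 and MCM3, which fell at least 2-fold, and of E2F2, which rose. They are written 5′ to 3′ on the strand of the gene, in lower case with E2F letters in capitals, and they lie at chr12:56752324-56752573 (minus strand), chr12:109097922-109098171 (plus strand), chr11:65261712-65261961 (plus strand), chr16:85688955-85689204 (minus strand), chr6:52284743-52284992 (minus strand) and chr1:23531234-23531483 (minus strand) of GRCh38.p14.
PRIM1: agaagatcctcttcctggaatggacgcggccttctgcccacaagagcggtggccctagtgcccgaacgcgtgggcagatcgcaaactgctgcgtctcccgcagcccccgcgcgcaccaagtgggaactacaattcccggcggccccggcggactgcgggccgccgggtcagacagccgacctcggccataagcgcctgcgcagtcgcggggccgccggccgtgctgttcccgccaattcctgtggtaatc
UNG: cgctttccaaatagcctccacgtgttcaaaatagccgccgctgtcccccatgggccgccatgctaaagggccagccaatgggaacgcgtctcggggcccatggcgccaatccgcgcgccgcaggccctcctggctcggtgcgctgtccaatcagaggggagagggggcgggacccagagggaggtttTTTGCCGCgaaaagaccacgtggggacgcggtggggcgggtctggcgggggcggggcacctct
POLA2: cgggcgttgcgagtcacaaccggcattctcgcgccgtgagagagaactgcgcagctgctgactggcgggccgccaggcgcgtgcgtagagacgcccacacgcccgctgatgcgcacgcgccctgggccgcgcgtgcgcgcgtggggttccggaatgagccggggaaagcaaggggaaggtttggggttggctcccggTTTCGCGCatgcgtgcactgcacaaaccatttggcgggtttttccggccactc
GINS2: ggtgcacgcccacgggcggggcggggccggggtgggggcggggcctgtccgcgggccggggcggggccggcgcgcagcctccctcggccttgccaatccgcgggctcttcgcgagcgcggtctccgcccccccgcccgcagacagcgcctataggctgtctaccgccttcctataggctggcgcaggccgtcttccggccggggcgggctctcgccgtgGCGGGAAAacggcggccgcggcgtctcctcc
MCM3: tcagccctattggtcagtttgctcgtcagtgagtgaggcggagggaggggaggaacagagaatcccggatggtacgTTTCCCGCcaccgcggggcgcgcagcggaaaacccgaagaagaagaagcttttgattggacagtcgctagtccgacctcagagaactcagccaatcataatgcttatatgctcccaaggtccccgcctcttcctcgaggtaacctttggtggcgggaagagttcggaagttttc
E2F2: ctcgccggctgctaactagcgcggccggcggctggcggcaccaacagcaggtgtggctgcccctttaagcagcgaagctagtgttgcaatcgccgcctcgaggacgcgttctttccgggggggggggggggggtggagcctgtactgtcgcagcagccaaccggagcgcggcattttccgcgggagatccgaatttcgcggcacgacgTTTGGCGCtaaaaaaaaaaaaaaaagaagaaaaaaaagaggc
The match lay 63 to 56 bases before the start in UNG, 53 to 46 in POLA2, 31 to 24 in GINS2, where it is on the opposite strand, 174 to 167 in MCM3 and 42 to 35 in E2F2. The PRIM1 window holds none of the 4 spellings, nor does that of MCM2, which is not shown. RRM2, the replication gene with the highest rise (log2 fold change 0.57), also had no match, and its window is not shown. UNG and RRM2 each had 2 windows listed, and 1 window of each is described here. The letters were present in windows of genes that fell and of a gene that rose. None of the 4 spellings lay in the windows of PRIM1 and MCM2, which fell, or of RRM2, which rose. These genes were picked by their changes in the same data, so they cannot show whether the letters go with a direction.

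Both directions occurred with and without the E2F letters. Of the 17 replication genes with a match, 11 were called lower and 2 higher, with a median log2 fold change of -0.30. Of the 24 without a match, 16 were called lower and 5 higher, with a median of -0.24. Outside the 45 genes, 511 tested genes had the letters, and 213 of them, or 41.7%, were called lower, with a median of -0.04. Of all 13591 tested genes, 41.7% were called lower and 40.6% higher. Those shares include genes without a promoter window, so the sets are not alike.

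Origin licensing genes varied within the helicase ring and among its loaders. Of 10 genes, 6 were called lower, 1 was called higher and 3 were not called, with a median log2 fold change of -0.35. The shares of all tested genes were 41.7% lower and 40.6% higher. MCM2, a subunit of the ring, had 60.1, 62.5 and 63.6 CPM in mebendazole libraries, against 146, 138 and 143 CPM in DMSO libraries. Its groups did not overlap, and its log2 fold change was -1.20 (SD of the 3 pair ratios 0.07, edgeR adjusted p = 4.5e-35). MCM3, another subunit, had 158, 165 and 158 CPM with mebendazole, against 354, 343 and 345 CPM with DMSO, a log2 fold change of -1.11 (SD 0.05, edgeR adjusted p = 4.8e-39). MCM5 and MCM7 fell less, with log2 fold changes of -0.63 and -0.51. MCM4 had 235, 239 and 236 CPM with mebendazole, against 301, 283 and 282 CPM with DMSO, a log2 fold change of -0.29. MCM6 had 164, 155 and 163 CPM with mebendazole, against 165, 163 and 167 CPM with DMSO, and was not called (-0.04, edgeR adjusted p = 0.331), though it was called lower with library totals (-0.28, edgeR adjusted p = 1.0e-09). The 6 subunits stand in equal numbers in the ring, but their RNAs changed by different amounts.

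Levels per kilobase of exon sequence, which allow genes to be set side by side, changed their order within the ring. Mean levels with mebendazole were 54.5 CPM per kb for MCM4, 49.9 for MCM3, 43.0 for MCM6, 31.2 for MCM7, 17.8 for MCM5 and 17.1 for MCM2. With DMSO they were 108 CPM per kb for MCM3, 66.5 for MCM4, 44.6 for MCM7, 44.2 for MCM6, 39.3 for MCM2 and 27.7 for MCM5. MCM3 thus stood second to MCM4 with mebendazole and first with DMSO, and MCM2 stood just below MCM5 with mebendazole and above it with DMSO. MCM6 and MCM7 with DMSO differ by less than the spread of their libraries. The lengths join the exons of all listed protein-coding transcripts of a gene, and which of these THP-1 cells use was not examined. The order of MCM4 and MCM3, and of MCM5 and MCM2, with mebendazole rests on small gaps and is uncertain for that reason.

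Among the loaders, ORC1, the largest subunit of the origin recognition complex, had 23.0, 23.5 and 21.2 CPM with mebendazole, against 29.3, 30.6 and 30.7 CPM with DMSO, a log2 fold change of -0.42 (SD 0.10, edgeR adjusted p = 1.6e-07). ORC6, its smallest subunit, moved the other way, at 32.2, 31.4 and 28.96 CPM with mebendazole, against 26.2, 25.4 and 25.9 CPM with DMSO (0.25, edgeR adjusted p = 4.6e-04). With library totals ORC6 was not called (0.01, edgeR adjusted p = 0.896). CDC6, the ATPase that loads MCM rings, had 42.4, 38.2 and 39.5 CPM with mebendazole, against 41.6, 45.02 and 42.9 CPM with DMSO, and its groups overlapped (-0.11, edgeR adjusted p = 0.0874). CDT1, its partner in loading, had 40.6, 35.9 and 39.7 CPM with mebendazole, against 42.7, 38.6 and 38.3 CPM with DMSO (-0.04, edgeR adjusted p = 0.539). With library totals both were called lower, CDC6 at -0.35 and CDT1 at -0.28, close to the shift of the median gene. CDC6 was also called lower without pair 1 (-0.18, edgeR adjusted p = 0.0157) and under a stricter filter that kept genes averaging at least 10 CPM (-0.14, edgeR adjusted p = 0.0307).

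Helicase activation genes were lower in 5 of 6, and GINS4 was higher, against 41.7% lower and 40.6% higher of all tested genes. GINS2, a subunit of the 4-part GINS complex, had 7.44, 8.74 and 8.03 CPM with mebendazole, against 19.8, 18.8 and 17.6 CPM with DMSO, a log2 fold change of -1.22 (SD 0.17, edgeR adjusted p = 5.6e-18). GINS4, a partner in the same complex, had 49.8, 50.2 and 50.4 CPM with mebendazole, against 36.6, 36.3 and 33.6 CPM with DMSO (0.50, SD 0.08, edgeR adjusted p = 5.0e-12). The groups did not overlap in either gene, and the directions were opposite. GINS1 fell by 0.54 on the log2 scale. GINS3 was called lower (-0.25, edgeR adjusted p = 0.0183), but its groups overlapped, at 12.0, 10.3 and 14.4 CPM with mebendazole and 14.7, 14.9 and 13.9 CPM with DMSO. GINS3 lost the call in DESeq2 (adjusted p = 0.216), without pair 1 (edgeR adjusted p = 0.0657) and without pair 2 (-0.10, edgeR adjusted p = 0.414). CDC45, which joins GINS on the ring, had 19.0, 18.5 and 18.7 CPM with mebendazole, against 26.1, 26.6 and 26.5 CPM with DMSO (-0.50). MCM10, which helps the assembled helicase to start, had 12.97, 13.1 and 13.2 CPM with mebendazole, against 16.8, 17.2 and 16.2 CPM with DMSO (-0.35).

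Polymerase and primase genes were lower in 6 of 7, with none called higher, against 41.7% lower and 40.6% higher of all tested genes. The widest falls of the 7 were those of PRIM1 and POLA2. DNA polymerase alpha and primase form a complex that lays the RNA-DNA primers of both strands. PRIM1, the catalytic primase subunit, had 8.64, 7.36 and 8.58 CPM with mebendazole, against 21.5, 23.2 and 23.8 CPM with DMSO. This was the lowest log2 fold change of the 45 genes, -1.47 (SD 0.17, edgeR adjusted p = 8.0e-23). POLA2, the accessory subunit of polymerase alpha, had 18.9, 19.9 and 17.6 CPM with mebendazole, against 50.2, 49.5 and 45.9 CPM with DMSO (-1.37, SD 0.05, edgeR adjusted p = 4.3e-29). POLA1, the catalytic subunit, had 20.6, 21.1 and 17.1 CPM with mebendazole, against 24.5, 22.7 and 25.3 CPM with DMSO (-0.30, SD 0.23, edgeR adjusted p = 3.3e-04). POLA1 lost its call without pair 3 (-0.18, edgeR adjusted p = 0.0811) and lay at the threshold in DESeq2 (adjusted p = 0.05005).

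Among the 45 genes, 4 encode polymerases delta and epsilon, which extend the lagging and the leading strand. POLE2, an accessory subunit of polymerase epsilon, had 4.46, 4.83 and 4.41 CPM with mebendazole, against 6.84, 8.07 and 7.29 CPM with DMSO, a log2 fold change of -0.69 (SD 0.07, edgeR adjusted p = 6.7e-06). The catalytic gene POLE had 101, 113 and 107 CPM with mebendazole, against 119, 112 and 109 CPM with DMSO, and was not called (-0.08, edgeR adjusted p = 0.0676). POLE was called lower with library totals (-0.33, edgeR adjusted p = 1.3e-09), with no filter (-0.10, edgeR adjusted p = 0.0324), under the stricter filter at 10 CPM (-0.11, edgeR adjusted p = 0.0159) and without pair 2 (-0.11, edgeR adjusted p = 0.0400). POLD1, the catalytic subunit of polymerase delta, and POLD3, an accessory subunit, had log2 fold changes of -0.24 and -0.18. DESeq2 did not call POLD3 (adjusted p = 0.0813).

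**Figure D3:**
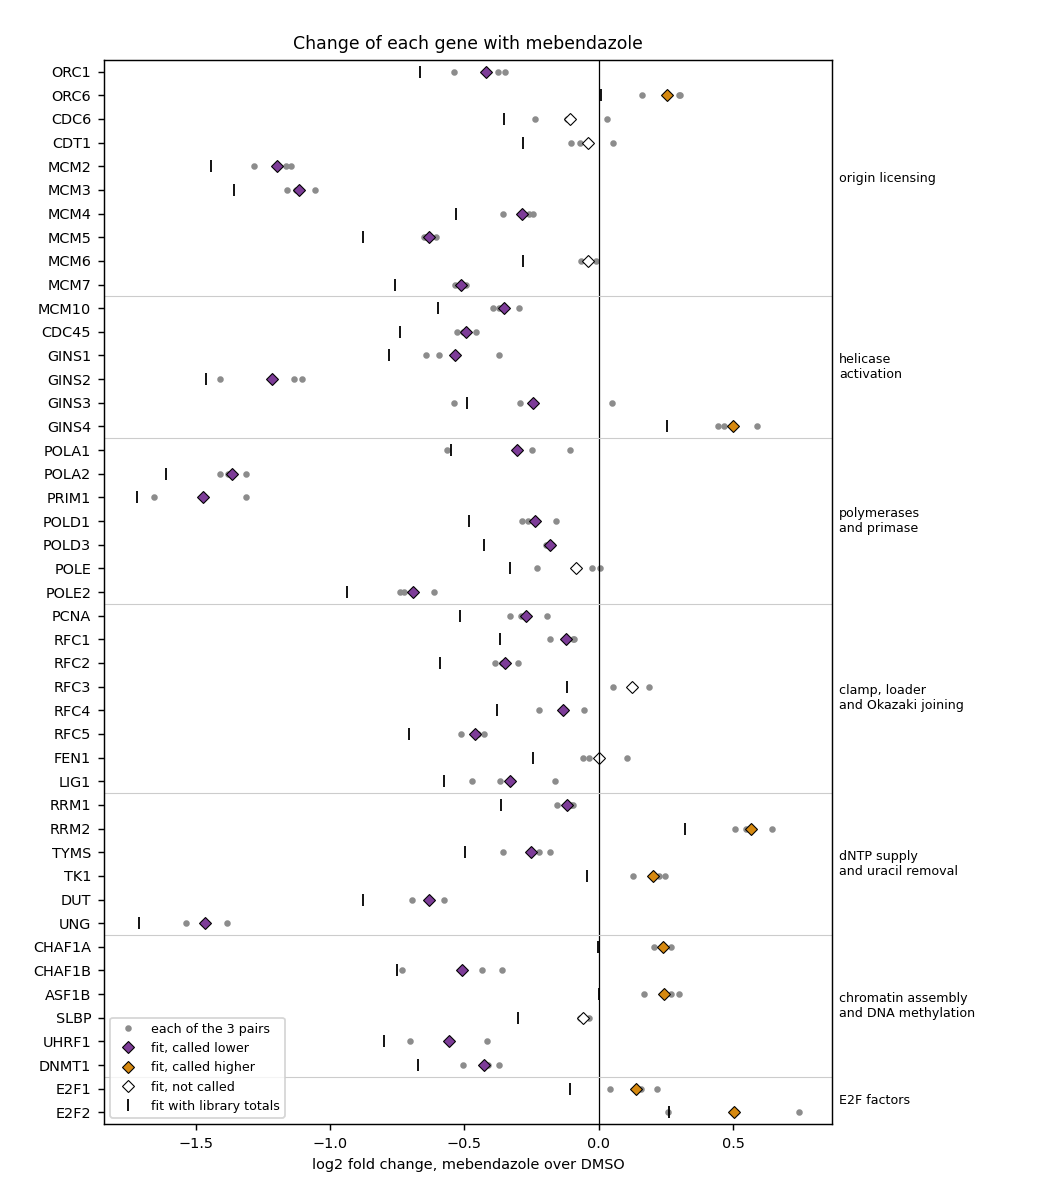
Log2 fold change of mebendazole over DMSO (horizontal axis) for each of the 45 genes (rows, by role), with grey points for the 3 pairs, diamonds for the fitted value coloured by call, and black ticks for the fit with library totals. The widest falls are PRIM1 at -1.47 and UNG at -1.47, the highest rise is RRM2 at 0.57, and the ticks lie to the left of the diamonds in every row.

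Clamp, clamp loader and Okazaki joining genes changed little. Of 8 genes, 6 were called lower, against 41.7% of all tested genes, and 2 were not called. The 8 log2 fold changes lay between -0.46 and 0.12. PCNA, the sliding clamp and a common marker of S phase, had 45.5, 44.3 and 44.4 CPM with mebendazole, against 52.1, 55.7 and 54.3 CPM with DMSO (-0.27, SD 0.07, edgeR adjusted p = 8.5e-06). The 5 subunits of the RFC loader spread from RFC5 at -0.46 and RFC2 at -0.35 to RFC4 at -0.13, RFC1 at -0.12 and RFC3 at 0.12. RFC3 had 33.6, 32.4 and 35.3 CPM with mebendazole, against 30.7, 31.2 and 31.0 CPM with DMSO, without overlap but also without a call (edgeR adjusted p = 0.0633). The call of RFC1 was lost in DESeq2 (adjusted p = 0.193) and without pair 2 (edgeR adjusted p = 0.191), and that of RFC4 in DESeq2 (adjusted p = 0.261), without pair 2 (edgeR adjusted p = 0.309), without pair 3 (edgeR adjusted p = 0.0806) and with DESeq2 size factors (edgeR adjusted p = 0.0545). RFC3 gained a call without pair 2 (0.17, edgeR adjusted p = 0.0325) and with DESeq2 size factors (0.15, edgeR adjusted p = 0.0294). LIG1, the ligase that seals Okazaki fragments, had 27.6, 30.2 and 33.5 CPM with mebendazole, against 38.2, 39.0 and 37.6 CPM with DMSO (-0.33, edgeR adjusted p = 4.1e-06). FEN1, the nuclease that trims their flaps, had 74.2, 74.9 and 75.5 CPM with mebendazole, against 76.2, 69.8 and 78.5 CPM with DMSO, and its log2 fold change was 0.00 (SD 0.09, edgeR adjusted p = 0.991), but -0.24 with library totals.

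Genes of deoxynucleotide supply and uracil removal moved both ways, with 4 of 6 called lower and 2 higher. All tested genes gave 41.7% lower and 40.6% higher. With library totals 1 of the 6 was higher, against 30.8% of all tested genes. UNG, which cuts uracil out of DNA, had 19.3, 18.3 and 20.1 CPM with mebendazole, against 56.1, 50.7 and 52.6 CPM with DMSO (-1.47, SD 0.08, edgeR adjusted p = 4.1e-31). DUT, the dUTPase that keeps uracil out of the precursor pool, had 55.3, 55.2 and 59.7 CPM with mebendazole, against 85.4, 89.5 and 88.9 CPM with DMSO (-0.63, SD 0.06, edgeR adjusted p = 4.5e-19). Both uracil enzymes were therefore lower in every mebendazole library. RRM2, the small subunit of ribonucleotide reductase and its cell cycle regulated part, rose instead, at 82.1, 77.6 and 73.4 CPM with mebendazole, against 52.6, 53.1 and 51.7 CPM with DMSO (0.57, SD 0.07, edgeR adjusted p = 1.9e-16). RRM1, the large subunit, had 102, 95.0 and 104 CPM with mebendazole, against 109, 106 and 112 CPM with DMSO, a log2 fold change of -0.12 that was called in edgeR (adjusted p = 0.00919) but not in DESeq2 (adjusted p = 0.165) or without pair 2 (edgeR adjusted p = 0.129). TK1, the salvage kinase for thymidine, had 49.5, 47.5 and 51.5 CPM with mebendazole, against 41.7, 43.5 and 44.1 CPM with DMSO (0.20, edgeR adjusted p = 8.3e-04), but with library totals TK1 lay at -0.04 (edgeR adjusted p = 0.458). TYMS, which makes thymidylate, had 29.7, 29.6 and 28.2 CPM with mebendazole, against 33.7, 34.5 and 36.1 CPM with DMSO (-0.25, edgeR adjusted p = 2.9e-04). The value of TYMS is uncertain, because 58.2% of its exon bases are shared with ENOSF1 on the opposite strand, a gene with 2491 reads with mebendazole and 2299 with DMSO, and the library kit does not mark strand. Smaller overlaps with genes on the opposite strand cover 7.58% of the exon bases of MCM7 (with AP4M1), 8.83% of PRIM1 (with HSD17B6) and 7.23% of FEN1 (with TMEM258). Opposite-strand overlaps also cover 1.31% of RFC4 (with EIF4A2), 1.24% of MCM2 (with TPRA1) and 0.262% of GINS2 (with GSE1). FADS2 shares 2.13% of FEN1 on the same strand. Log2 fold changes were -1.79 for FADS2, -0.83 for GSE1, -0.50 for EIF4A2 and 0.78 for TPRA1.

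Of 6 chromatin genes, 3 were called lower, 2 higher, though neither of the 2 with library totals, and 1 was not called. For comparison, 41.7% of all tested genes were called lower and 40.6% higher. CHAF1A and CHAF1B encode subunits of the CAF-1 chaperone that places new histones behind the fork. CHAF1A had 55.3, 53.7 and 55.8 CPM with mebendazole, against 46.7, 46.6 and 46.3 CPM with DMSO (0.24, SD 0.03, edgeR adjusted p = 4.5e-05). CHAF1B had 10.6, 11.0 and 13.1 CPM with mebendazole, against 17.5, 14.9 and 16.9 CPM with DMSO (-0.51, SD 0.20, edgeR adjusted p = 1.7e-06). ASF1B, a histone chaperone that hands histones to CAF-1, had 51.9, 51.6 and 49.7 CPM with mebendazole, against 42.2, 42.9 and 44.2 CPM with DMSO (0.24). With library totals, however, CHAF1A and ASF1B lay at -0.00 each and were not called (edgeR adjusted p = 0.946 and 0.991).

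The maintenance methylation pair fell together. DNMT1, the methyltransferase that copies methylation to the new strand, had 131, 132 and 134 CPM with mebendazole, against 185, 176 and 173 CPM with DMSO (-0.43, SD 0.07, edgeR adjusted p = 7.1e-16). UHRF1, which brings DNMT1 to hemimethylated DNA, had 27.6, 28.5 and 23.6 CPM with mebendazole, against 40.6, 38.0 and 38.4 CPM with DMSO (-0.56, SD 0.14, edgeR adjusted p = 8.3e-12). SLBP, which binds the stem-loop of histone mRNAs, had 99.9, 98.9 and 102 CPM with mebendazole, against 103, 103 and 107 CPM with DMSO, and was not called (-0.06, edgeR adjusted p = 0.207), though it was called lower with library totals (-0.30, edgeR adjusted p = 5.2e-09).

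Genes for the activating E2F factors E2F1 and E2F2 were both called higher under TMM, as were 40.6% of all tested genes. E2F2 was also called higher under library totals. E2F2 had 15.7, 16.7 and 18.4 CPM with mebendazole, against 13.1, 11.7 and 11.0 CPM with DMSO (0.50, SD 0.24, edgeR adjusted p = 1.8e-06). E2F1 had 39.7, 41.9 and 40.0 CPM with mebendazole, against 34.1, 37.6 and 38.8 CPM with DMSO, a log2 fold change of 0.14 at the edge of the test (edgeR adjusted p = 0.0292). E2F1 lost the call in DESeq2 (adjusted p = 0.138), without pair 1 (edgeR adjusted p = 0.188), without pair 2 (edgeR adjusted p = 0.0625), with no filter (edgeR adjusted p = 0.0705) and under the stricter filter at 10 CPM (edgeR adjusted p = 0.0794), and lay at -0.11 with library totals.

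Ratios between partner genes within a library do not depend on the scaling. The 9 pairs described were chosen after the values were seen, so they are given without a test. Reads of MCM2 per read of MCM6 were 0.367, 0.402 and 0.391 in mebendazole libraries, against 0.885, 0.850 and 0.853 in DMSO libraries. Reads of GINS2 per read of GINS4 were 0.149, 0.174 and 0.159 with mebendazole, against 0.540, 0.517 and 0.525 with DMSO. The RRM2 to RRM1 ratio was 0.805, 0.817 and 0.707 with mebendazole, against 0.483, 0.502 and 0.463 with DMSO. CHAF1A to CHAF1B was 5.23, 4.86 and 4.25 with mebendazole, against 2.66, 3.12 and 2.74 with DMSO. PRIM1 to POLA1 averaged 0.424 ± 0.077 with mebendazole and 0.946 ± 0.072 with DMSO (SD, n = 3 each), and POLA2 to POLA1 averaged 0.965 ± 0.060 with mebendazole and 2.01 ± 0.19 with DMSO. Groups did not overlap in any of the 9 pairs, an outcome that choosing the pairs by their values favoured. Within these 9 pairs the partners changed unequally whatever the scaling.

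**Figure D4:**
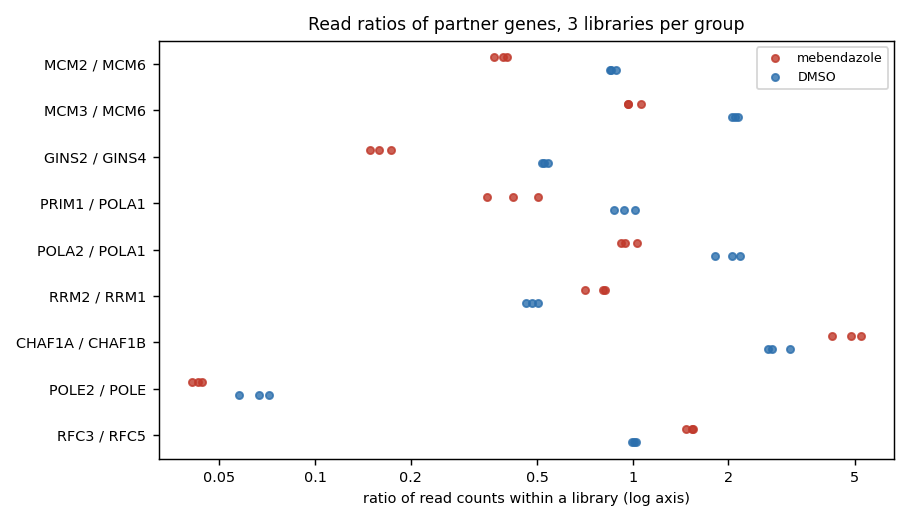
Ratio of read counts of 9 pairs of partner genes within each library (log axis), with mebendazole in red drawn above DMSO in blue and a point for each of the 3 libraries per group. The MCM2 to MCM6 ratio sits between 0.367 and 0.402 with mebendazole and between 0.850 and 0.885 with DMSO, and RRM2 to RRM1, CHAF1A to CHAF1B and RFC3 to RFC5 sit higher with mebendazole.

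Other replication factors, outside the 45 genes, were also more often called lower than higher. Of 34 tested, 21 were called lower, 61.8% against the 41.7% of all tested genes, and 4 were called higher, 11.8% against 40.6%, with a median log2 fold change of -0.32. With library totals 29 were lower and 2 higher, against 53.9% and 30.8% of all tested genes. The partner subunits ORC3 (-1.27), ORC5 (-0.99) and ORC4 (-0.50) of the origin recognition complex, POLD2 of polymerase delta (-1.16) and POLE3 of polymerase epsilon (-0.55), named after their values were seen, were among those called lower. Another origin recognition subunit, ORC2, was not called (-0.11, edgeR adjusted p = 0.147). RNASEH2B, a subunit of the enzyme that removes ribonucleotides from DNA, had 28.6, 29.5 and 31.8 CPM with mebendazole, against 85.4, 91.1 and 94.9 CPM with DMSO (-1.59, SD 0.03, edgeR adjusted p = 1.5e-37). TIPIN, of the fork protection complex, fell by 1.36 on the log2 scale. TOP1, the topoisomerase that relaxes DNA ahead of the fork, rose (0.71), as did the helicase gene RECQL4 (0.34, but 0.10 with library totals).

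Nucleotide synthesis enzymes outside the 45 genes were mostly lower. Of 27 tested, 23 were called lower, 85.2% against 41.7% of all tested genes, and 3 higher, 11.1% against 40.6%, with a median of -0.89. With library totals 24 were lower and 1 higher, against 53.9% and 30.8% of all tested genes. DHODH, which makes orotate on the pyrimidine route, had 2.98, 2.61 and 2.83 CPM with mebendazole, against 23.5, 23.2 and 23.5 CPM with DMSO (-3.05, SD 0.09, edgeR adjusted p = 2.8e-34). PAICS, of purine synthesis, had a log2 fold change of -2.16. RRM2B, the alternative small subunit of ribonucleotide reductase that is known as a damage-responsive gene, had 188, 172 and 190 CPM with mebendazole, against 66.5, 68.0 and 66.1 CPM with DMSO (1.45, SD 0.10, edgeR adjusted p = 8.6e-41). SHMT1, a one-carbon enzyme, rose by 0.33 with TMM but was not called with library totals (0.09, edgeR adjusted p = 0.465). Both small subunit genes, RRM2 and RRM2B, were thus higher, and RRM1 was not.

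Among other E2F, RB and DREAM genes, which set when S phase genes are read, rises outnumbered falls under TMM but not under library totals. Of 16 tested, 10 were called higher, 62.5% against 40.6% of all tested genes, and 6 lower, 37.5% against 41.7%, with a median of 0.28. With library totals the split was 6 higher and 6 lower, where 30.8% of all tested genes were higher and 53.9% lower. RB1, the retinoblastoma protein that holds E2F factors back, had 134, 123 and 131 CPM with mebendazole, against 68.7, 66.1 and 68.0 CPM with DMSO (0.94, SD 0.04, edgeR adjusted p = 1.2e-29). LIN37, a DREAM subunit, rose (0.89), and RBL1, the RB relative p107, and LIN9, another DREAM subunit, fell (-0.60 and -0.68).

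Of 23 checkpoint and fork repair genes, 14 were called lower, 60.9% against 41.7% of all tested genes, and 4 higher, 17.4% against 40.6%. Their median was -0.33, and library totals gave 18 lower and 3 higher, against 53.9% and 30.8% of all tested genes. ATR, the kinase that answers stalled forks, had 25.9, 25.0 and 23.8 CPM with mebendazole, against 49.0, 49.5 and 44.0 CPM with DMSO (-0.93, SD 0.05, edgeR adjusted p = 8.6e-22). RAD1 of the checkpoint clamp (0.71) and WEE1, the kinase that restrains CDK1 and CDK2 (0.63), rose. Of 15 other chromatin assembly genes, 8 were called lower, 53.3% against 41.7% of all tested genes, and 5 higher, 33.3% against 40.6%. Their median was -0.15, and library totals gave 11 lower and 4 higher, against the same 53.9% and 30.8%. Among the 15 the histone chaperone gene SSRP1 (-0.71) and MMS22L (-0.65) fell, and ATRX (0.53) and the deubiquitinase gene USP7 (0.51) rose.

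**Figure D5:**
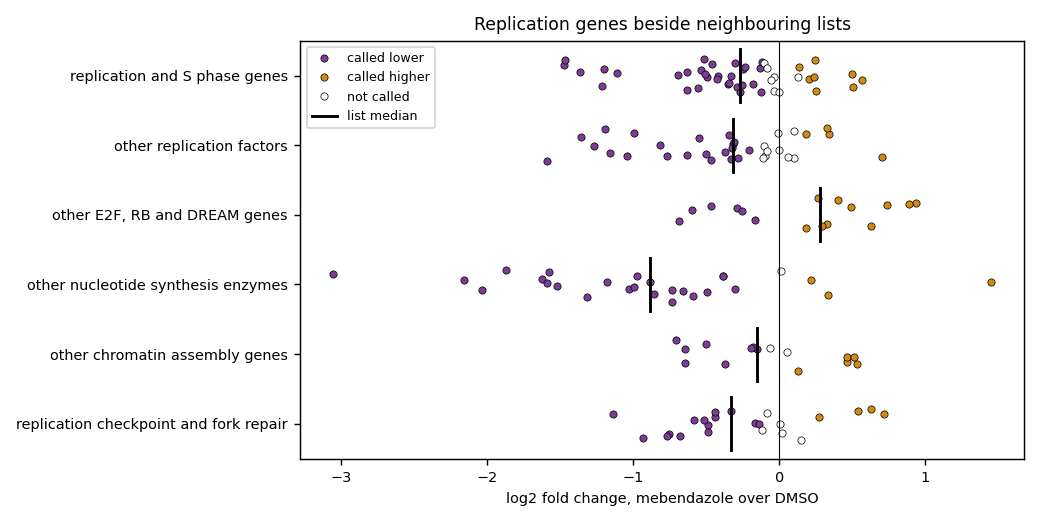
Log2 fold change of mebendazole over DMSO (horizontal axis) for the 45 replication and S phase genes and the tested genes of 5 neighbouring lists (rows), with a point per gene coloured by call and a black bar at the list median. The median is lowest for nucleotide synthesis enzymes at -0.89, -0.27 for the replication genes, and of the 6 lists it is above 0, under TMM, only for E2F, RB and DREAM genes at 0.28.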

How the data were processed

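Libraries were prepared from total RNA of THP-1 cells. The kit was TruSeq RNA v2 per the labels' protocols, and its reads carry no strand information. The values in the deposited table are unnormalized counts of reads for each gene symbol. STAR, bedtools, HTSeq, DESeq2 and hg19 are named without roles, per the submitters' processing notes, while the annotation and strand setting of the counting are not stated there. The present fit used edgeR 4.0.16 under R 4.3.3: filterByExpr on group (99.9% of reads kept), TMM scaling, glmQLFit and glmQLFTest (two-sided) with the sample pair as a term, because the labels state pairs, and Benjamini-Hochberg adjustment over all 13591 tested genes. Each gene had 2 residual degrees of freedom beside a prior of 61.0, so single p-values rest mostly on spread pooled over genes. The SD printed with a log2 fold change is that of the 3 pair log2 ratios. DESeq2 1.42.0 was an alternative. Libraries of a group differed by more than counting noise (mean chi-square per degree of freedom 1.45 to 3.30).

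The 45 members, the neighbouring lists and the tests were chosen with earlier results of these data known. Named genes are all members and, of each list, the 2 called genes that rose most and the 2 that fell most, if their mean CPM was at least 1 and no pair differed in sign, except for 1 gene that is not reported here. Exon lengths and overlaps come from GENCODE 29, which is of another build than the counts, so only lengths and names were used. Copies named after PCNA, RFC3, RFC5, FEN1, RRM2, TYMS, DUT and UNG exist there, and reads may be split with them, so the values of those 8 genes are uncertain.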

Additional observations from a re-analysis of the deposited data

How the results depend on the processing

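Of the 45 genes, 27 kept their direction and call under every alternative that included them other than the test against a 1.5-fold change, 24 of them called lower and 3 called higher. That share was not computed for all tested genes. POLE2, among the 24, was not included at a mean CPM of 10 or more. With that test 6 genes were lower (21.2% of all tested genes were) and 0 higher (21.3% of all tested genes), 5774 of all genes changed against 11192, and 32 genes of the neighbouring lists were lower and 6 higher against 72 and 26, because it asks for a larger change. With library totals 3 genes were higher in place of 8, the neighbouring lists had 16 higher genes, and the median of the 45 was -0.52. TK1 (-0.0439), CHAF1A (-0.00405), ASF1B (-0.000723), E2F1 (-0.11) and FEN1 (-0.24) then lay below 0, with the median of all genes moved by -0.24. The median was -0.25 with DESeq2 size factors and -0.25 in the DESeq2 test. Leaving out a pair, 27 to 30 genes were lower and 7 to 8 higher, and the median was -0.26 each time. In those fits 10572 to 10885 of all genes changed, and the lists had 66 to 72 lower and 24 to 27 higher. The shares of all tested genes called lower and higher were not computed there, so these counts have no background beside them.

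With no replicate block 30 genes were lower and 8 higher, the median was -0.27, 11118 of all genes changed, and no call among the 45 differed. The shares of all tested genes called lower and higher were not computed for that fit. Within the 3 pairs, deviations from the group means had correlations of -0.001, 0.06 and 0.02, and 3 of 6 libraries correlated best with their own number, so the numbers showed no shared deviation. Pseudocounts were not varied, because the table holds counts.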
